A study of Mus musculus with 24 samples.

Results

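The scaffold genes of the excitatory postsynaptic density were followed by the trimethylation of histone H3 lysine 4 (H3K4me3) at their promoters in the mouse cerebral cortex. The genes are Dlg4, Shank1, Shank2, Shank3, Homer1, Dlgap1, Dlgap2, Dlgap3 and Dlgap4. Their promoters were taken as the H3K4me3 peak regions that overlap a transcription start site (TSS) of any of their transcripts annotated in GENCODE M1 on mm9. This gave 18 regions of the 17993 on the list, of which 13404 overlap a TSS of some gene. The 9 genes have 83 annotated TSSs, of which 48 lie in these regions. Dlg4, Homer1 and Dlgap3 have 1 region each, Shank1, Shank2 and Dlgap4 have 2, and Shank3, Dlgap1 and Dlgap2 have 3. The regions of 1 gene are numbered P1, P2 and P3 in the direction of transcription, since all 9 genes lie on the plus strand. All 18 regions had counts in every library, from 8 to 2229 reads, and all were tested.

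The postsynaptic density is the protein meshwork beneath the membrane of excitatory synapses. Dlg4 encodes PSD-95, which binds the tails of NMDA receptors and other membrane proteins with its PDZ domains. The Dlgap genes encode the SAPAP (GKAP) proteins, which join PSD-95 to the Shank proteins, and the Shank proteins in turn bind Homer, which contacts group I metabotropic glutamate receptors. H3K4me3 is a mark of active promoters, so its level at a TSS shows which promoter of a gene is marked in the cells from which the chromatin came.

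Chromatin came from 2 mouse lines on a C57BL/6 background. Both carry human histone H2B with a FLAG tag, driven by the CAG promoter from the Rosa26 locus. In Rosa H2B-FLAG mice (labelled Rosa CAG-H2B-FLAG) a stop cassette had been removed with Vasa-Cre, so that nearly all cells carry the tagged histone. In Camk2a H2B-FLAG mice (labelled Rosa26 CAG-floxed-pA-H2B-FLAG/ CaMKCreERT2) a tamoxifen-dependent Cre under a Camk2a promoter removes the cassette in Camk2a-positive neurons. These mice were double-heterozygous males that received 1 mg of tamoxifen a day for 5 days at 8 weeks and were used a month later, whereas the sources used here give the Rosa H2B-FLAG mice only as heterozygous adults. Tamoxifen is stated for the Camk2a H2B-FLAG mice alone, so its effect and that of the line cannot be told apart. Each lysate held cortices of 2 animals. Single ChIP-Seq used the H3K4me3 antibody alone, and tChIP-Seq first pulled down tagged chromatin with the M2 antibody to FLAG and then applied the H3K4me3 antibody to the eluate. The 4 groups have 3 libraries each. Total counts in the regions were 6316125 to 8644574 in Rosa single ChIP-Seq, 1457261 to 1828371 in Rosa tChIP-Seq, 4063200 to 4233144 in Camk2a single ChIP-Seq and 2709729 to 3049130 in Camk2a tChIP-Seq. The Rosa tChIP-Seq libraries are thus the shallowest and have the largest counting error.

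Stretches of 150 bases before the first TSS of 6 regions are shown here, because the results turn on these regions. They are the Shank3 and Dlgap4 promoters that differed most within 1 gene, an upstream Shank2 promoter, and Homer1. The sequences are on the plus strand of mm9, and none overlaps an annotated exon. They lie at chr15:89329904-89330053 (Shank3 P1), chr15:89363171-89363320 (Shank3 P3), chr2:156439291-156439440 (Dlgap4 P1), chr2:156546158-156546307 (Dlgap4 P2), chr7:151361275-151361424 (Shank2 P1) and chr13:94073562-94073711 (Homer1). Capitals mark the GC box GGGCGG, read on the other strand as CCGCCC, and the TATA box TATAAA, read on the other strand as TTTATA.
Shank3 P1: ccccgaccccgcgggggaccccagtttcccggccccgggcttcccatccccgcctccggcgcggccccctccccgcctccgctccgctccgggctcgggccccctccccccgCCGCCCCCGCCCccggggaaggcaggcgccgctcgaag
Shank3 P3: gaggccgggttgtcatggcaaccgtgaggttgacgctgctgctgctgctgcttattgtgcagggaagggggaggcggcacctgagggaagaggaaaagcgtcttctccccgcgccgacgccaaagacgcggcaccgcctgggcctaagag
Dlgap4 P1: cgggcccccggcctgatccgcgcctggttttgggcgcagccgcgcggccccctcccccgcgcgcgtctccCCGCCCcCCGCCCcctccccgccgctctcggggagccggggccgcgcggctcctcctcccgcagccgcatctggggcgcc
Dlgap4 P2: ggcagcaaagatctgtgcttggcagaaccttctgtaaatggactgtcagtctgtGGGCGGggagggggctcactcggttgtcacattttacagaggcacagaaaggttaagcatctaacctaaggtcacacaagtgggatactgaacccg
Shank2 P1: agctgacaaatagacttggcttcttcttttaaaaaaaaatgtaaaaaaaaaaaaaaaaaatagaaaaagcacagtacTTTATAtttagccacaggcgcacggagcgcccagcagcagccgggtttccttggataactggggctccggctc
Homer1: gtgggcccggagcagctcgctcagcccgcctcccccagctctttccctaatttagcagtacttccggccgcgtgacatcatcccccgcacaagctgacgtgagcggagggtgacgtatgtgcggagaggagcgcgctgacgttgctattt
The stretch before Shank3 P1 holds 21 CpG and 84.7% GC, against 12 CpG and 64.7% GC before Shank3 P3. The stretch before Dlgap4 P1 holds 24 CpG and 84.7% GC, against 3 CpG and 51.3% GC before the first of the 3 TSSs of Dlgap4 P2. The whole regions are closer, with 62.9% GC and 61.5 CpG per kb at Dlgap4 P1 and 58.2% GC and 49.6 CpG per kb at Dlgap4 P2.

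H3K4me3 at the scaffold promoters was higher in chromatin purified from Camk2a-positive neurons than in chromatin purified through the tag from nearly all cells. In tChIP-Seq, 17 of the 18 regions were called higher in Camk2a H2B-FLAG than in Rosa H2B-FLAG (edgeR quasi-likelihood test, Benjamini-Hochberg adjusted p under 0.01 over all regions), and none was called lower. Of all regions, 17.0% were called higher in this comparison. At the same 17 regions every Camk2a library lay above every Rosa library, which held for 24.8% of all regions. The median log2 fold change over the 18 regions was 0.98, against a median of 0.00 over all regions, whose 10th and 90th percentiles were -0.79 and 0.80. The changes ranged from 0.02 at Dlgap4 P2 to 1.56 at Shank3 P3. The summed level of the 18 regions was 1263, 1300 and 1189 CPM (read counts scaled by library size, after TMM normalization over all 12 libraries) in the Rosa tChIP-Seq libraries and 2175, 2276 and 2198 CPM in the Camk2a tChIP-Seq libraries, which do not overlap. In bulk chromatin, a larger share of cells with a marked promoter and more of the mark per cell cannot be told apart.

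**Figure D1:**
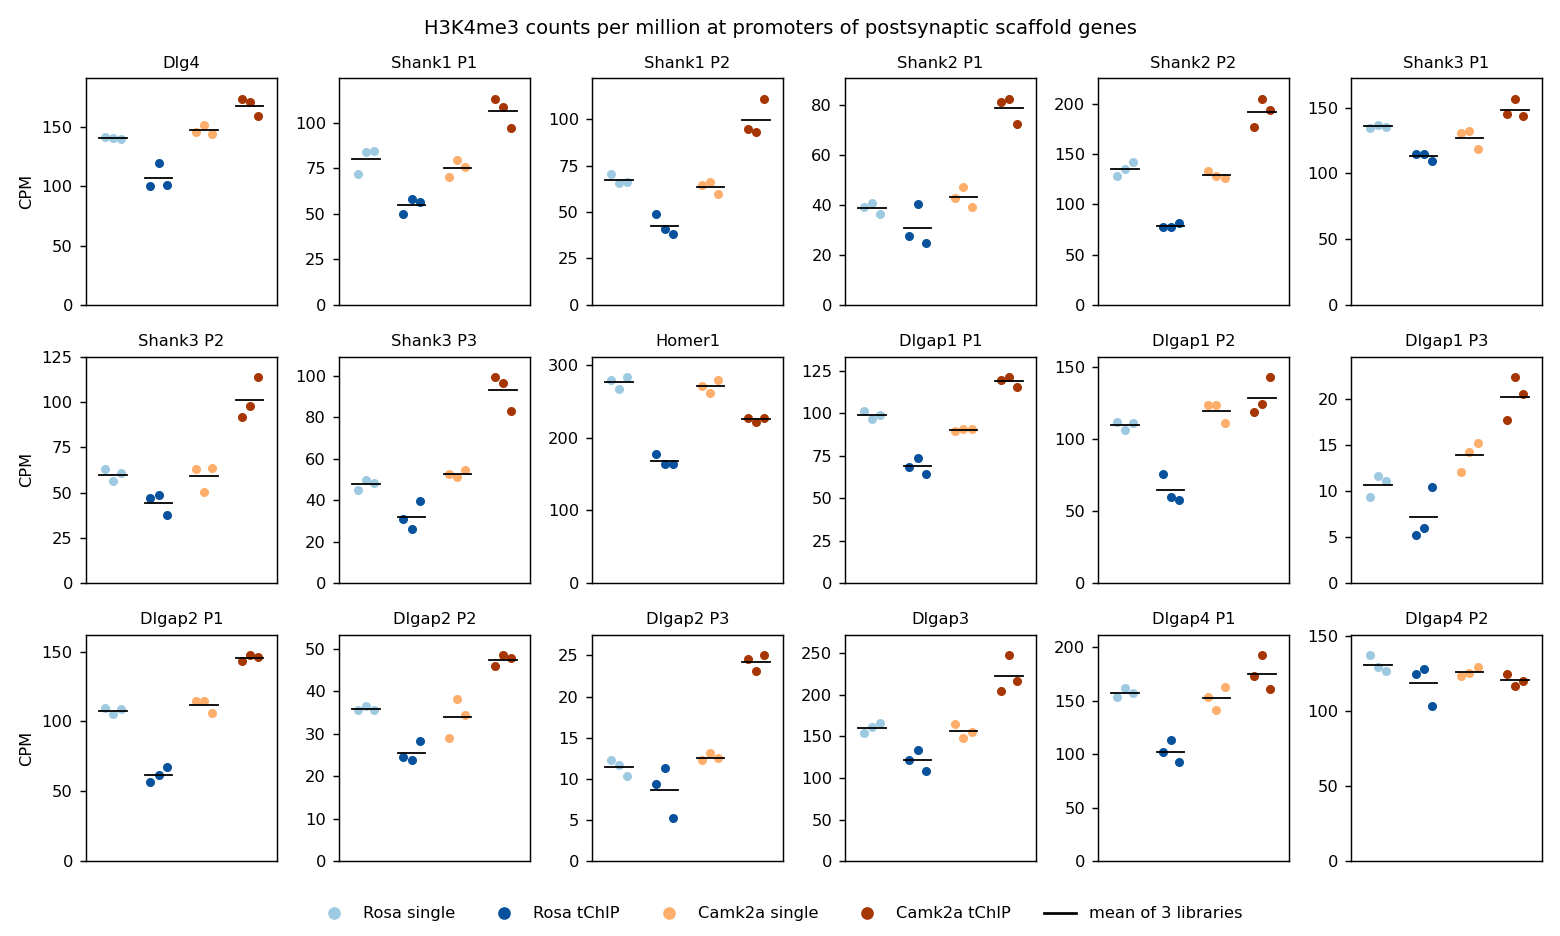
H3K4me3 level (CPM, linear axis from 0) at each of the 18 scaffold promoter regions in the 12 libraries; points are libraries and black lines are means of the 3 libraries of a group. Camk2a tChIP-Seq libraries lie above Rosa tChIP-Seq libraries in every panel except Dlgap4 P2, while both single ChIP-Seq groups lie close together.

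At Dlg4 (chr11:69831118-69835877), which encodes PSD-95, the level in tChIP-Seq was 100.2, 119.9 and 101 CPM in the Rosa libraries and 174, 171 and 159.9 CPM in the Camk2a libraries. The groups are separate, and 1 Rosa library lies above the other two. The log2 fold change was 0.66 (SE 0.0727, adjusted p = 8.8e-13), or 1.58-fold. This region holds 3 of the 13 annotated TSSs of Dlg4, all of protein-coding transcripts.

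The Dlgap genes, which encode the linkers between PSD-95 and Shank, gave 9 regions, of which 8 were called higher. At Dlgap3 (chr4:126844940-126851431) the level was 121, 134 and 108 CPM in Rosa and 205, 247 and 217 CPM in Camk2a tChIP-Seq. The Camk2a libraries were all higher, with a change of 0.88 on the log2 scale (SE 0.0701, adjusted p = 6.75e-19). At Dlgap2 P1 (chr8:14095129-14098098), the most 5′ of its regions, the level was 56.9, 61.4 and 67.6 CPM in Rosa and 143, 147 and 146 CPM in Camk2a tChIP-Seq. The Camk2a libraries were again all higher, with a change of 1.24 on the log2 scale (SE 0.0844, adjusted p = 1.88e-22). Dlgap2 P2 (chr8:14381523-14384131) and P3 (chr8:14777545-14779116), whose transcripts there are not annotated as protein-coding, were changed by 0.90 (SE 0.138) and 1.46 (SE 0.217). Dlgap2 P3 rests on 18, 19 and 8 reads in the Rosa tChIP-Seq libraries, so its size is poorly determined.

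At Dlgap1 the upstream promoter P1 (chr17:70317891-70320985) was changed by 0.79 (SE 0.0856, adjusted p = 4.86e-13) and the internal promoter P2 (chr17:70870491-70876480) by 0.98 (SE 0.091, adjusted p = 8.52e-16). P1 had 68.4, 73.4 and 64.3 CPM in Rosa and 119, 121 and 115 CPM in Camk2a tChIP-Seq. P2 had 75.7, 59.6 and 57.7 CPM in Rosa and 118, 124 and 143 CPM in Camk2a tChIP-Seq. Both pairs of groups are separate. The innermost region, P3 (chr17:70910820-70912341), was changed by 1.52 (SE 0.241, adjusted p = 1.28e-07) from only 10, 10 and 16 reads in Rosa tChIP-Seq, and its SE is the largest among the 18 regions.

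Dlgap4 has a marked promoter that moved and one that did not pass the test. At Dlgap4 P1 (chr2:156438361-156441792) the level was 102, 113 and 92.5 CPM in Rosa and 173, 192 and 161 CPM in Camk2a tChIP-Seq, a change of 0.78 on the log2 scale (SE 0.0751, adjusted p = 4.92e-15). At Dlgap4 P2 (chr2:156545756-156549079) it was 125, 128 and 104 CPM in Rosa and 125, 117 and 120.5 CPM in Camk2a tChIP-Seq. The groups at P2 overlap, and the log2 fold change was 0.02 with a 95% interval from -0.13 to 0.17 (adjusted p = 0.881). The P1 region also holds TSSs of Gm14169 and Gm14174 and the P2 region that of 4930405A21Rik, whose reads cannot be separated from those of Dlgap4.

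All 7 regions of the Shank genes, which encode the scaffold that joins the SAPAP proteins to Homer, were called higher. Shank1 P1 (chr7:51565326-51567891) had 50.1, 57.9 and 56.4 CPM in Rosa and 113, 109 and 97.2 CPM in Camk2a tChIP-Seq, a change of 0.97 on the log2 scale (SE 0.0952, adjusted p = 9.1e-15). Shank1 P2 (chr7:51590696-51593615), where the annotated transcripts are non-coding, had 49, 40.6 and 38.1 CPM in Rosa and 94.8, 93.1 and 111 CPM in Camk2a, a change of 1.21 on the log2 scale (SE 0.105, adjusted p = 3.54e-17). The groups are separate at both promoters. Shank2 P1 (chr7:151360611-151364439) had 27.7, 40.6 and 24.9 CPM in Rosa and 81.4, 82.6 and 72.6 CPM in Camk2a tChIP-Seq. Shank2 P2 (chr7:151469352-151474593) had 77.2, 77.5 and 81.4 CPM in Rosa and 177, 205 and 194 CPM in Camk2a tChIP-Seq. The log2 fold changes were 1.35 (SE 0.122) and 1.29 (SE 0.0766), and Shank2 P2 has the lowest adjusted p of the 18 regions, 1.39e-25.

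Shank3 has 3 marked promoters that moved to different extents. The most upstream, P1 (chr15:89328179-89331579), had 115, 114.5 and 109.6 CPM in Rosa and 145, 157 and 144 CPM in Camk2a tChIP-Seq, a change of 0.40 on the log2 scale (SE 0.072, adjusted p = 2.63e-06). The middle one, P2 (chr15:89353634-89355644), also holds a TSS of Gm15609, whose reads cannot be separated from those of Shank3. The only Shank3 transcript that starts there is not annotated as protein-coding. P2 had 47, 48.9 and 37.4 CPM in Rosa and 91.9, 97.8 and 114 CPM in Camk2a, a change of 1.18 (SE 0.105, adjusted p = 1.34e-16). The innermost of them, P3 (chr15:89363010-89365280), had 30.8, 26.2 and 39.4 CPM in Rosa and 99.4, 96.7 and 83.2 CPM in Camk2a, a change of 1.56 (SE 0.116, adjusted p = 2.74e-20). Shank3 P1 thus has the smallest change among the 17 called regions and Shank3 P3 the largest.

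Homer1 encodes the partner of Shank, in long forms that can bridge proteins and in a short form that is induced by neuronal activity. Its single region (chr13:94072710-94079992) spans 7283 bp, wider than 99.8% of all regions that overlap a TSS, and holds 9 of its 10 annotated TSSs. The level was 178, 163 and 163 CPM in Rosa and 227, 222 and 228 CPM in Camk2a tChIP-Seq. The groups are separate but close, with a change of 0.43 on the log2 scale (SE 0.0593, adjusted p = 3.3e-09), or 1.34-fold.

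**Figure D2:**
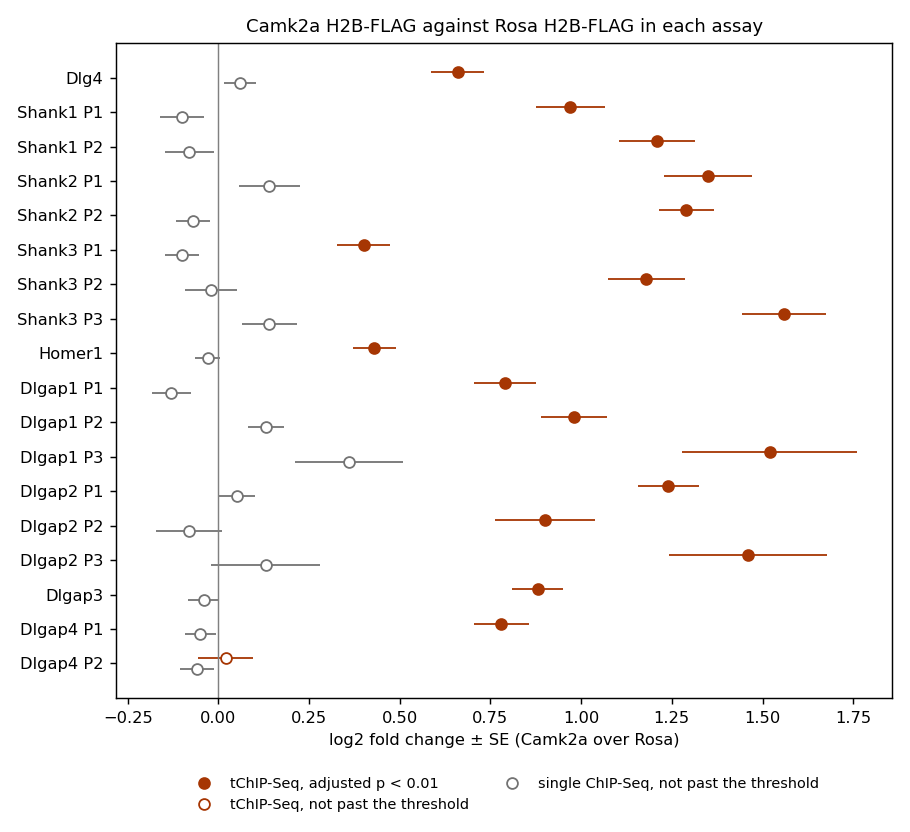
Log2 fold change of Camk2a H2B-FLAG over Rosa H2B-FLAG with its SE at the 18 regions, in tChIP-Seq (brown) and in single ChIP-Seq (grey); filled points passed an adjusted p of 0.01. In tChIP-Seq 17 regions passed, and in single ChIP-Seq no region passed, with changes between -0.13 and 0.36.

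Single ChIP-Seq was compared between the lines to ask whether the whole cortex already differed. It gave no call at any of the 18 regions (edgeR, lowest adjusted p = 0.0956 at Dlgap1 P2), where 2.15% of all regions were called in either direction. An unadjusted p under 0.05 was found at 4 of the 18, where 22.0% of all regions had one, and the Wald test of DESeq2 called none. Those 4 were Dlgap1 P1 (95% interval -0.24 to -0.03), Dlgap1 P2 (0.03 to 0.23), Dlgap1 P3 (0.07 to 0.66) and Shank3 P1 (-0.19 to -0.01), in both directions. The log2 fold changes of the 18 ranged from -0.13 at Dlgap1 P1 to 0.36 at Dlgap1 P3, with a median of -0.03. Dlg4 had 142, 141 and 139.7 CPM in Rosa and 146, 152 and 144 CPM in Camk2a single ChIP-Seq, a change of 0.06 (95% interval -0.02 to 0.15). Homer1 had 279.6, 267 and 283 CPM in Rosa and 272, 261 and 279.9 CPM in Camk2a single ChIP-Seq, a change of -0.03 (95% interval -0.10 to 0.04). The Dlg4 libraries of the lines lie next to each other without overlapping, and those of Homer1 overlap. Shank3 P3 had 45, 50 and 48.4 CPM in Rosa and 52.7, 51.1 and 54.6 CPM in Camk2a single ChIP-Seq, a change of 0.14 (95% interval -0.01 to 0.28).

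The line effects in both assays were compared by the interaction of line and assay over all 12 libraries. The effect was larger in tChIP-Seq at 17 of the 18 regions (edgeR, adjusted p under 0.01), where 13.7% of all regions were called in this direction. The interaction term, which is the line effect in tChIP-Seq minus that in single ChIP-Seq on the log2 scale, had a median of 1.02 and reached 1.41 (SE 0.14) at Shank3 P3. It was 0.45 (SE 0.0689) at Homer1, 0.49 (SE 0.0865) at Shank3 P1 and 0.59 (SE 0.0851) at Dlg4. At Dlgap4 P2 the term was 0.07 with a 95% interval from -0.11 to 0.24 (adjusted p = 0.614). Without Rosa tChIP-Seq replicate 1 the term at Dlgap1 P3 was 0.94 and no longer passed the threshold (edgeR, adjusted p = 0.0158).

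Within each line, tChIP-Seq was compared with single ChIP-Seq from the same kind of animal. This difference holds both the choice of tagged cells and any bias of the added FLAG step, whose parts were not tested. The paper reported sites enriched or depleted by tChIP-Seq in Rosa H2B-FLAG. For that reason it based its differential analyses mainly on tChIP-Seq between the lines. In Rosa H2B-FLAG, where nearly all cells carry the tag, the level fell at 14 of the 18 regions (edgeR, adjusted p under 0.01), where 22.5% of all regions were called lower, and none rose. The largest fall was -0.79 (SE 0.0823) at Dlgap2 P1, followed by -0.77 (SE 0.0728) at Shank2 P2, -0.73 (SE 0.0807) at Dlgap1 P2 and -0.70 (SE 0.0506) at Homer1. The change was -0.32 at Shank2 P1, -0.60 at Dlgap1 P3, -0.38 at Dlgap2 P3 and -0.12 at Dlgap4 P2, and these 4 did not pass the test. Shank2 P1 passed without Rosa tChIP-Seq replicate 2 (adjusted p = 0.00133) and Dlgap1 P3 without replicate 3 (adjusted p = 0.00601). Dlgap2 P2 did not pass without replicate 1 or without replicate 2 of Rosa tChIP-Seq (adjusted p = 0.013 and 0.0114), nor Shank3 P2 without replicate 3 (adjusted p = 0.0179). Over the 13404 regions that overlap a TSS, the change in Rosa H2B-FLAG was lower in wider regions (Spearman's rho -0.47), and the scaffold regions are wide, with a median of 3210 bp against 2060 bp. Among the 18 regions rho was -0.13. The part of width in these falls was not tested.

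In Camk2a H2B-FLAG the level rose at 15 of the 18 regions, where 25.3% of all regions were called higher. It fell at Homer1, where 22.6% of all regions were called lower. The largest rises were 0.94 (SE 0.156) at Dlgap2 P3, 0.87 (SE 0.0866) at Shank2 P1, 0.82 (SE 0.0791) at Shank3 P3 and 0.78 (SE 0.0773) at Shank3 P2. The smallest that passed were 0.22 (SE 0.0571) at Shank3 P1, 0.20 (SE 0.0538) at Dlgap4 P1 and 0.19 (SE 0.0534) at Dlg4. Homer1 changed by -0.26 (SE 0.0443, adjusted p = 8.01e-08), and its Camk2a tChIP-Seq libraries lie below all its single ChIP-Seq libraries. Homer1 was therefore lower after the FLAG step in both lines, by a larger margin in Rosa H2B-FLAG. The change was 0.10 at Dlgap1 P2 and -0.07 at Dlgap4 P2, which did not pass. The calls of Dlg4, Shank3 P1, Dlgap1 P3 and Dlgap4 P1 are the least firm. Dlg4 lost its call without Camk2a tChIP-Seq replicate 1 (adjusted p = 0.0159), and Shank3 P1 without tChIP-Seq replicate 2 (0.0123) or single ChIP-Seq replicate 3 (0.0118). Dlgap4 P1 lost it without tChIP-Seq replicate 2 (0.0577) or single ChIP-Seq replicate 2 (0.0259), and Dlgap1 P3 without tChIP-Seq replicate 2 (0.0273), tChIP-Seq replicate 3 (0.0107) or single ChIP-Seq replicate 1 (0.0237). With the Wald test of DESeq2 all 4 missed the threshold. Each line's comparison shares its libraries with those between the lines, so the values stand side by side and are not independent.

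**Figure D3:**
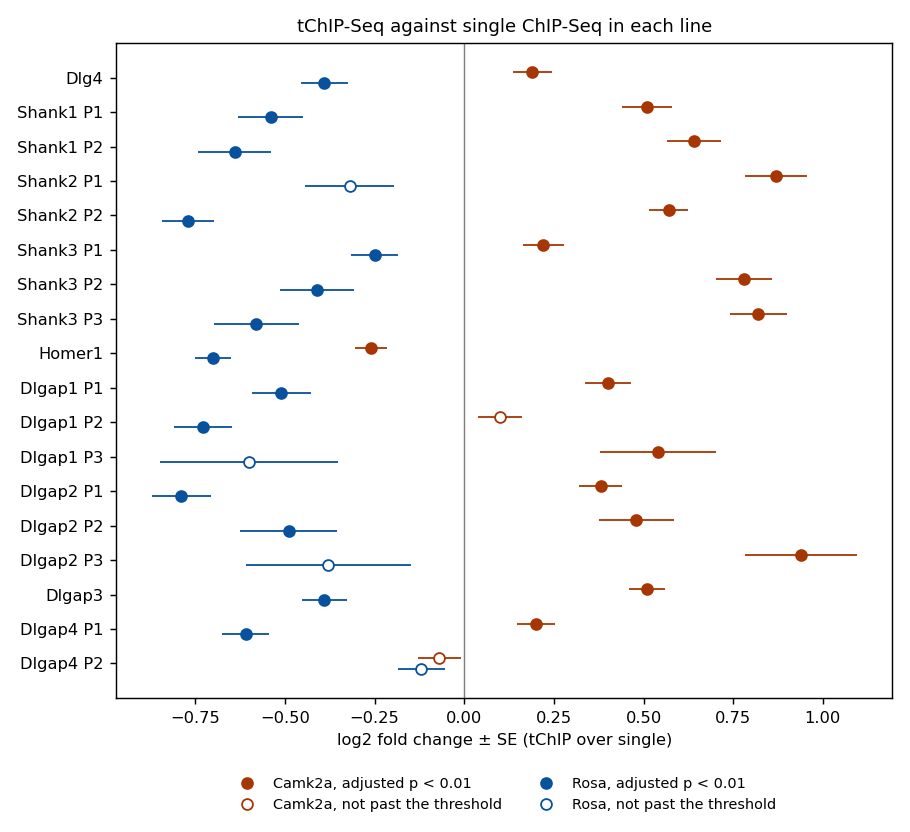
Log2 fold change of tChIP-Seq over single ChIP-Seq with its SE at the 18 regions, in Camk2a H2B-FLAG (brown) and Rosa H2B-FLAG (blue); filled points passed an adjusted p of 0.01. All Rosa values lie below 0, and the Camk2a values lie above 0 except at Homer1 (-0.26) and Dlgap4 P2 (-0.07).

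The promoters of 1 gene were then compared with each other, by testing whether the line effect is the same in all TSS regions of a gene (gene-level F test of diffSpliceDGE in edgeR, over 829 genes with at least 2 TSS regions). In tChIP-Seq the promoters of Shank3 differed (adjusted p = 1.17e-15) and so did those of Dlgap4 (adjusted p = 3.47e-11), where 47.2% of the 829 genes were called. These are 2 of the 6 scaffold genes tested, a share below that of all genes. The test did not pass for Dlgap1 (adjusted p = 0.0402), Dlgap2 (0.116), Shank1 (0.164) or Shank2 (0.747). Dlgap1 passed without Rosa tChIP-Seq replicate 3 (adjusted p = 0.00997). In single ChIP-Seq none of the 6 passed, where 0.965% of the 829 genes were called. An unadjusted p under 0.05 was found at 3 of the 6, where 21.7% of the 829 genes had one, with the lowest adjusted p at Dlgap1 (0.0121).

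The ratio of counts between promoters of the same library shows this without any scaling between libraries. For Shank3, counts at P3 were 0.268, 0.229 and 0.359 of those at P1 in the Rosa tChIP-Seq libraries and 0.684, 0.618 and 0.579 of them in the Camk2a tChIP-Seq libraries. In single ChIP-Seq the same ratio was 0.335, 0.365 and 0.357 in Rosa and 0.403, 0.387 and 0.461 in Camk2a libraries. The internal Shank3 promoter thus gained on the upstream one in Camk2a tChIP-Seq, which stands apart from the other 9 libraries. The ratio of Shank3 P2 to P1 was also highest there, with a mean of 0.683 ± 0.0948 (SD, n = 3) against 0.392 ± 0.0452 in Rosa tChIP-Seq.

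For Dlgap4, counts at P2 were 1.23, 1.13 and 1.12 of those at P1 in Rosa tChIP-Seq and 0.72, 0.606 and 0.75 of them in Camk2a tChIP-Seq. In single ChIP-Seq they were 0.895, 0.799 and 0.808 in Rosa and 0.807, 0.885 and 0.798 in Camk2a libraries. The single ChIP-Seq libraries lie between the tChIP-Seq groups, with P2 the stronger in Rosa tChIP-Seq and P1 the stronger in the other 9 libraries. At Shank2 the ratio of P2 to P1 overlapped between the lines, with means of 2.66 ± 0.686 in Rosa and 2.44 ± 0.25 in Camk2a tChIP-Seq (SD, n = 3 each).

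**Figure D4:**
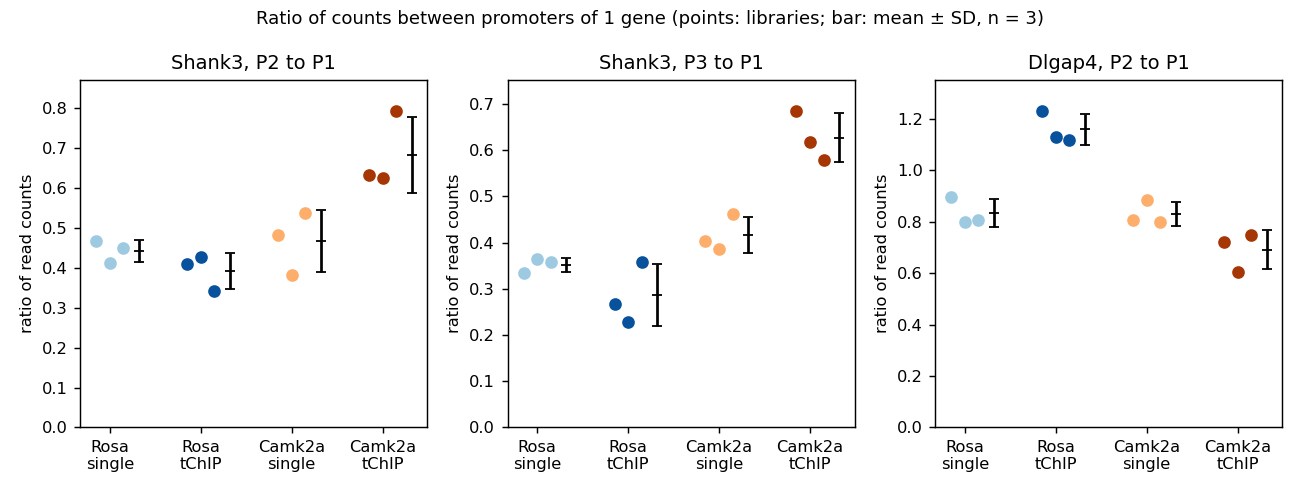
Ratio of read counts between promoters of Shank3 (P2 to P1 and P3 to P1) and of Dlgap4 (P2 to P1) in each library (points), with the mean ± SD of the 3 libraries of a group (bars). For Shank3 P3 the Camk2a tChIP-Seq libraries sit between 0.579 and 0.684, above all others, and for Dlgap4 the Rosa tChIP-Seq libraries sit between 1.12 and 1.23, above all others.

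Levels of different regions were compared per length, in CPM per kb. In Rosa single ChIP-Seq, Dlgap4 P1 was highest with 45.9 ± 1.28 CPM per kb (SD, n = 3) and Dlgap1 P3 lowest with 7.04 ± 0.756, which overlapped with Dlgap2 P3 at 7.28 ± 0.656. The median of the 18 regions was 27.7 CPM per kb there, against 29.3 over all regions that overlap a TSS. Dlgap4 P1 was separate from the next regions, Shank3 P1, Dlgap4 P2 and Homer1, whose libraries overlapped from each to the next at 39.9, 39.5 and 38 CPM per kb. In Rosa tChIP-Seq the median of the 18 was 19.7 CPM per kb, against 27.9 over all TSS regions, and Dlgap4 P2 had the highest mean, 35.8 ± 4.03, overlapping with Shank3 P1 at 33.2 ± 0.864. In Camk2a tChIP-Seq the median rose to 35.8 CPM per kb, against 29.2 over all TSS regions. There Dlgap4 P1 with 51.1 ± 4.66, Shank3 P2 with 50.3 ± 5.65 and Dlgap2 P1 with 48.9 ± 0.72 CPM per kb were highest and did not differ beyond the spread of their libraries. Shank3 P2 had been the eighth of the 18 in Rosa single ChIP-Seq, with 29.8 ± 1.66 CPM per kb. Homer1, the fourth there with 38 ± 1.2 CPM per kb, was the thirteenth in Camk2a tChIP-Seq with 31 ± 0.402.

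The scaffold regions are wide and vary in base composition. Their median width was 3210 bp, against 2060 bp for all regions that overlap a TSS, and their median GC content 54.6% against 54.2%. They had a median of 31.8 CpG per kb, against 43.6. Dlgap1 P2, with 8.51 CpG per kb and 41.3% GC, lies far below Shank3 P2, with 69.1 CpG per kb and 65.5% GC, and both were called higher in Camk2a tChIP-Seq. In GC content these regions stand at percentiles 1.02 and 97.6 of all TSS regions. Across the 18 regions, Spearman's rho of the line effect in tChIP-Seq was -0.51 with width and -0.36 with CpG per kb, against 0.26 and -0.13 over the 13404 TSS regions. For tChIP-Seq against single ChIP-Seq in Camk2a H2B-FLAG, rho with width was -0.55 over the 18 regions and -0.07 over the TSS regions. These are descriptions over regions that share libraries.

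Short motifs were searched on both strands from 250 bases before to 49 after a TSS in each region. The GC box GGGCGG was found at 9 of the 18 regions, against 66.6% of the 13404 TSS regions, and the CCAAT box CCAAT at 3, against 32.9%. The TATA box TATAAA was found at 2, Shank2 P1 and Dlgap1 P2, against 4.92%. The left and right parts of the RE1 site, CAGCACC and GGACAGCG, which belong to the site of the repressor REST, were found only at Shank1 P2, against 8.61% and 2.51%. They start at -204 and -183 from the TSS, and whether they form a whole site was not tested. The letters of the CRE TGACGTCA (2.9% of all), the NRF1 core CGCATGCG (3.1%) and the MEF2 core TATTTTTA (0.865%) were not in these windows. Copies of the GC box overlap each other at Dlgap1 P1 and Dlgap4 P1, and no other matches overlap. The window follows the TSS nearest to the middle of the region, so it can differ from the stretches printed above.

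Regions inside these genes or within 5 kb of them that hold none of their TSSs were also read, and 10 were found. In tChIP-Seq 2 of them were called higher in Camk2a H2B-FLAG and 2 lower, where 17.0% and 14.6% of all regions were called so. Those called higher lie inside the Shank2 gene, at chr7:151318167-151319956 and chr7:151424547-151427316, which hold no annotated TSS. The first had 13, 10.1 and 11.2 CPM in Rosa and 32.8, 38.3 and 25.8 CPM in Camk2a tChIP-Seq, a change of 1.49 on the log2 scale (SE 0.193, adjusted p = 3.11e-10), and the second was changed by 1.39 (SE 0.145, adjusted p = 1.06e-13). Of those called lower, a region over the 3′ end of Dlgap3 (chr4:126913101-126914333) had 28.2, 25 and 26.9 CPM in Rosa and 10.2, 11.9 and 11.8 CPM in Camk2a tChIP-Seq, a change of -1.24 (SE 0.188, adjusted p = 3.77e-08). A region within Dlgap1 at a TSS of Gm16952 (chr17:71104500-71105217) was changed by -1.41 (SE 0.27, adjusted p = 8.41e-06). At the end of Dlgap3 and at Gm16952 the level in Rosa tChIP-Seq was above all other libraries. The other 6, which include the Acadvl promoter next to Dlg4 (-0.34, adjusted p = 0.0411) and the Erich1 promoter next to Dlgap2 (-0.02, adjusted p = 0.884), did not pass.

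Other synaptic genes and markers of cell types were read as lists in the same tChIP-Seq comparison between the lines, in which 17.0% of all regions were called higher and 14.6% lower. Of 58 TSS regions of other adaptors of the excitatory postsynaptic density, 32 were called higher and 6 lower, with a median log2 fold change of 0.33. The largest rises were 1.59 (SE 0.0841) at a promoter of Kalrn, which encodes kalirin, and 1.59 (SE 0.122) at one of Dlg1, a relative of Dlg4, and the largest falls were -2.81 (SE 0.418) and -1.91 (SE 0.158) at promoters of Iqsec1, an exchange factor for Arf6. The promoters of Iqsec1 went both ways, since another (chr6:90756221-90760441) was called higher (1.26, SE 0.0888) and a further one lower (-0.33, SE 0.0885). Of 28 regions of synaptic adhesion genes, 24 were called higher and none lower, with a median of 0.73. The called regions ranged from 0.44 at Ptprs and 0.46 at Bai2 to 1.35 at Ptprd and 1.43 at Lrrtm4. Of 13 regions of inhibitory postsynaptic scaffold genes, 5 were called higher and 1 lower, with a median of 0.08. Among them were promoters of Magi2 (1.48 and 0.36), while Dtna, which encodes dystrobrevin alpha, was changed by -0.86 (SE 0.2). Of 16 regions of presynaptic active zone genes, 9 were called higher and 1 lower, with a median of 0.57. The called regions were at -0.57 at Unc13b and from 0.45 at Ppfia2 to 1.35 at Rimbp2 and 1.38 at Rims2. In single ChIP-Seq, where 2.15% of all regions were called in either direction, 1 adaptor region and 1 adhesion region were called, both lower.

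Markers of cell types were read in the same comparison. All 5 regions of excitatory cortical neurons were called higher in Camk2a tChIP-Seq, with a median log2 fold change of 1.33, among them Slc17a7, the vesicular glutamate transporter (1.65, SE 0.0984), Neurod2 (1.37) and Emx1 (1.28). Their summed level was 374, 380.5 and 342 CPM in Rosa and 797.5, 824 and 846 CPM in Camk2a tChIP-Seq, and between 657 and 667 CPM in all 6 single ChIP-Seq libraries. No region of the list was at 0 in any library. Of the 7 regions of inhibitory neurons 6 were called lower (median -1.03), as were all 5 of astrocytes (-2.29), 6 of 7 of oligodendrocytes (-1.34) and all 6 of endothelial cells (-2.17). The summed level fell between Rosa and Camk2a tChIP-Seq from a mean of 194 to 101 CPM for inhibitory neurons, from 374 to 165 CPM for astrocytes, from 361 to 221.5 CPM for oligodendrocytes and from 264.5 to 74.8 CPM for endothelial cells. The most abundant regions of these lists were those of Dlx5, Sox9, Cnp and Flt1, and none was at 0 in any library. The region of Mbp on the oligodendrocyte list was called higher (1.18, SE 0.0943). In single ChIP-Seq, where 2.15% of all regions were called in either direction, 3 of the 7 oligodendrocyte regions were called, all lower in Camk2a. No region of the other lists of markers was called there. Tbr1, Slc32a1, Gfap, Sox10 and Cldn5, among others, and all 7 microglial markers have no TSS region on the list. The part of cell composition in the scaffold results was not tested.

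**Figure D5:**
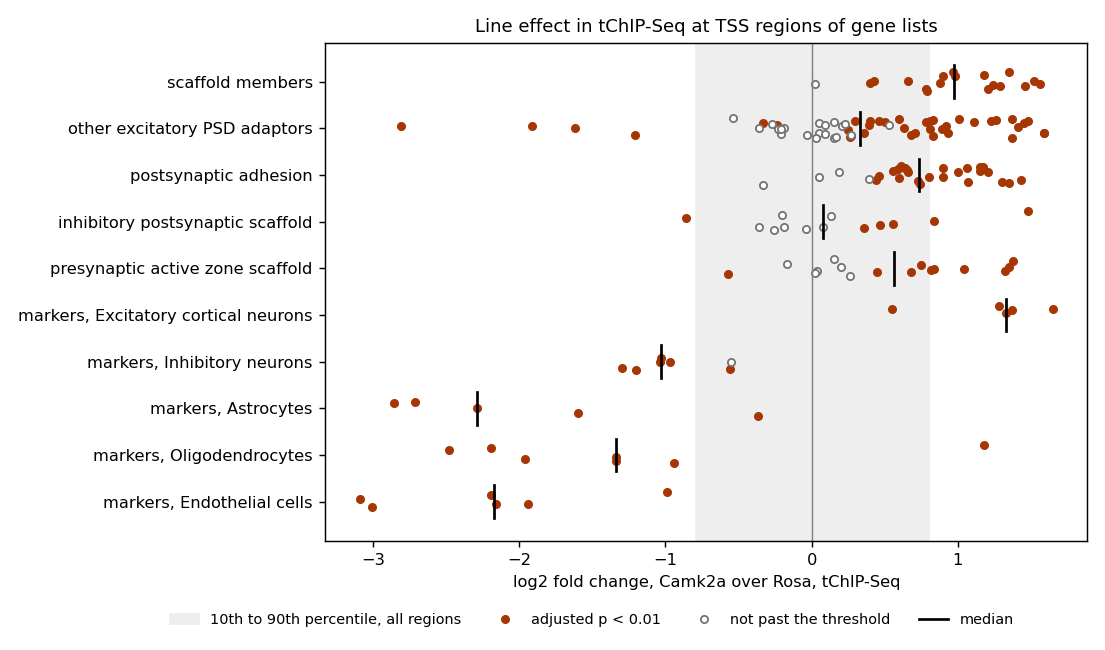
Log2 fold change of Camk2a over Rosa H2B-FLAG in tChIP-Seq for each TSS region of the scaffold genes, of 4 other lists of synaptic genes and of 5 lists of cell type markers; black lines are medians and the grey band spans the 10th to 90th percentile of all 17993 regions (-0.79 to 0.80). The scaffold regions have a median of 0.98, between the excitatory neuron markers (1.33) and the synaptic adhesion genes (0.73).

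The profile of the scaffold regions over the 12 libraries, as the mean of their centred log2(CPM + 1), was set against every other TSS region. The regions most like it by Pearson's r were those of Mcf2l (0.9962), of Shisa7 shared with Gm15525 (0.9955), of Cacna1e, a calcium channel subunit (0.9952), of Mtus2 shared with Gm15721 (0.9947) and of Sphkap (0.9941). Their line effects in tChIP-Seq were 1.55, 1.43, 1.19, 0.92 and 1.68. Among the scaffold regions themselves, r with this mean, which they help to make, was 0.9879 at Shank2 P2 but 0.5701 at Homer1 and 0.1552 at Dlgap4 P2.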

How the data were processed

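H3K4me3 single ChIP-Seq and tChIP-Seq libraries of mouse cortex were analysed. Per the labels and methods, the authors trimmed reads, removed repeats with Bowtie2 2.1.0, mapped the rest to mm9 with Bowtie 1.0.0, removed duplicates with SAMtools (0.1.19 in the processing notes), called MACS peaks and counted reads with bedtools 2.17.0. They deposited raw counts on 1 list of 17993 regions, and how that list was merged is not given in the sources used here. The 12 input and FLAG libraries were not analysed here.

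Counts were fitted in edgeR 4.0.16 (R 4.3.3) with TMM factors, glmQLFit and glmQLFTest, each pair of groups in its own 6 libraries and the interaction over 12, with no filter, no covariate and Benjamini-Hochberg adjustment over all regions at 0.01. The scripts were tested on simulated data. An SE is the log2 fold change over the square root of F, and 95% intervals are normal ones from it. CPM used the factors of the 12-library fit, so fold changes can differ slightly from ratios of CPM. Library totals (1457261 to 8644574) set the precision, and p-values measure the spread between libraries. All pairs of replicates differed by more than sampling noise, but only slightly, with a chi-square per degree of freedom from 1.029 to 1.092.

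The scaffold genes, lists and tests were chosen with earlier results of these data known. Named were all TSS regions of the 9 genes, other regions within 5 kb, on each list the 2 called regions with the largest and the 2 with the smallest change, and the 5 regions of most similar profile. The further promoters of Iqsec1 were named beside those that fell most. Lists were written from general knowledge, and some of their genes are not reported here. Magi2, Nlgn2 and Cask are on 2 lists each.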

Additional observations from a re-analysis of the deposited data

Results flagged for a closer look

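A line effect that differs between the assays, by the interaction test over 12 libraries in edgeR, marks 17 of the 18 scaffold regions for a closer look. In all of them the effect was larger in tChIP-Seq. The interaction terms on the log2 scale were 0.59 at Dlg4, 1.06 and 1.29 at Shank1 P1 and P2, 1.20 and 1.35 at Shank2 P1 and P2, and 0.49, 1.19 and 1.41 at Shank3 P1, P2 and P3. They were 0.45 at Homer1, 0.92, 0.84 and 1.15 at Dlgap1 P1, P2 and P3, 1.18, 0.98 and 1.33 at Dlgap2 P1, P2 and P3, 0.91 at Dlgap3 and 0.82 at Dlgap4 P1. The cell type markers moved in the same libraries, and their part in these values was not tested. Groups of 3 libraries were too small to look for single libraries that stand apart.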

How the results depend on the processing

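The 17 scaffold regions called higher in Camk2a tChIP-Seq numbered 17 with DESeq2 size factors, with totals as the only scaling, with the DESeq2 Wald test, with the replicate block, all 12 libraries in 1 fit, thresholds of 0.05 and 0.001 and without each library in turn. They numbered 16 with at least 10 counts in every library and 15 when the 40% of regions lowest in total count were dropped, where regions were left out of the fit. TSSs of protein-coding transcripts alone leave 14 regions, 13 of them called. In single ChIP-Seq none of the 18 was called under any of these or with thinned counts. Leaving out 1 library gave 13 to 14 regions called lower in Rosa and 12 to 14 called higher in Camk2a for tChIP-Seq against single ChIP-Seq, 16 to 17 for the interaction, and 2 to 3 genes with unequal promoters in tChIP-Seq. The Wald test gave 11 in Camk2a, and library totals alone 12 in Rosa. The fall at Shank3 P1 in Rosa did not pass with library totals alone (adjusted p = 0.0379), thinned counts (0.0429) or without the 40% (0.193), nor that at Dlgap2 P2 with library totals alone (0.0103) or without the 40% (0.0335), nor that at Shank3 P2 without the 40% (0.0322), all in edgeR.

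Only small changes turned direction, and none was called. Dlgap4 P2 turned in the line effect in tChIP-Seq to -0.05 (library totals alone), -0.01 (without the 40%), -0.06 (without Rosa tChIP-Seq replicate 3) and -0.01 (without Camk2a tChIP-Seq replicate 1), in a range from -0.06 to 0.07 over the libraries left out. In the interaction it turned to -0.03, -0.01 and -0.01 under the first 3 of these, with a range from -0.01 to 0.12 over the libraries left out, and without the 40% it was 0.03 in Rosa and 0.00 in Camk2a for tChIP-Seq against single ChIP-Seq. In the line effect in single ChIP-Seq, Shank3 P2 turned to 0.01 and Homer1 to 0.00 with library totals alone, and both to 0.01 without the 40%. Thinning turned Shank2 P1 to -0.23. Leaving out 1 library gave a range from -0.08 to 0.08 at Shank3 P2 and from -0.18 to 0.02 at Dlgap2 P2.

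Counts over all regions moved more. For the line effect in single ChIP-Seq, 167 higher and 219 lower became 194 and 57 with library totals alone, 5 and 12 with the Wald test, 63 and 41 without the 40%, 11 and 0 with thinned counts, 522 and 669 at 0.05, and 56 and 48 at 0.001. Without 1 library they were 69 to 131 higher and 49 to 165 lower. Without the 40%, lower calls were 1257 (main 2620) for the line effect in tChIP-Seq and 1167 (main 2375) for the interaction, and for tChIP-Seq against single ChIP-Seq 1896 higher and 1769 lower in Rosa and 2567 and 2015 in Camk2a. Library totals alone gave 2522 lower and 5298 higher in Rosa (main 4046 and 4439), 2570 higher and 3315 lower for the line effect in tChIP-Seq (main 3062 and 2620) and 1894 and 2970 for the interaction (main 2466 and 2375), and the Wald test 2414 lower in Camk2a (main 4058). The cause was not tested. Genes with unequal promoters in single ChIP-Seq numbered 8, and 3 with the replicate block, 56 at 0.05, of which 1 is a scaffold gene (Dlgap1), and 1 to 6 without 1 library.

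The labels give the same replicate numbers in every group, and whether same-numbered libraries of a line come from 1 lysate is not given in the sources used here. Deviations of same-numbered libraries from their group means correlated between -0.018 and 0.035 over 15173 regions, and not every library correlated best with its own number, which does not settle it. For the line effect in tChIP-Seq the replicate block joins same-numbered libraries of different lines, which are different lysates, so it cannot bear on this question. There it gave 2948 higher and 2520 lower calls and changed no call of a scaffold region. Depth limits Dlgap1 P3 and Dlgap2 P3, which have 8 to 19 reads in the Rosa tChIP-Seq libraries.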
